A study of Arabidopsis thaliana with 4 samples.

Results

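The genes described here had their lowest signal on the wild type array and a higher, similar signal on the arrays of as1-1, as2-1 and AS2 overexpressing plants. They were chosen from the deposited signals themselves. Signals under a floor of 43 were raised to it, and a probe set (the group of oligonucleotides that measures a transcript on the array) was a member if the lowest of the 3 other arrays was at least 80 and at least 1.5 times wild type, with the highest of those 3 under 2 times the lowest. Of 22746 probe sets, 175 met these conditions. The choice leaves out 5 genes by name (COR27, AT4G33980, AT1G07050, scpl35 and AT1G62790), of which 4 had met the conditions, so that 171 members remained. AT1G62790 had missed them, because its highest of the 3 signals was 2.14 times the lowest. The naming table gave 98 members 1 gene each, gave 1 member several genes and gave 72 members none.

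AS1 is a MYB-domain protein and AS2 a nuclear protein of the LBD family, and together they act in young leaf primordia. The series measured transcripts on 4 Affymetrix arrays, 1 for each genotype, namely wild type, mutants carrying as1-1 or as2-1, and plants overexpressing AS2. Every genotype was in the Col-0 background, and shoot apices with their leaf primordia were taken from plants 14 days old, kept on soil in a daily cycle of 16 light hours and 8 dark hours. The labels do not say which promoter drives AS2 in the overexpressing line, how many plants were pooled or how many lines were used, and a free-text description of embryos goes against the tissue labels, which were followed.

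No genotype has a replicate, so no value below carries an error between samples and no test was run. Since the same signals chose the members, every difference from wild type is a description of these arrays, and all comparisons with wild type share its single array. Between 59.0% and 61.0% of probe sets lay at or above the floor on each array. The leaf genes RCA and LHCB4.1 and the stomatal lineage genes SPCH and FAMA lay above the floor on all 4 arrays. MUTE, also of the stomatal lineage, lay below the floor on all 4, at 22.9 to 29.8. So did the root hair gene EXPA7 and CLV3, a gene of the centre of the shoot meristem, which has very few expressing cells. In samples of whole tissue, fewer cells of a type and less RNA per cell cannot be told apart.

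Of the 98 named members, 43 were given a role here and 55 were not, and 16 of the 43 take part in making ribosomes. Ribosomes are assembled in the nucleolus: RNA polymerase I transcribes the ribosomal RNA precursor, small nucleolar ribonucleoproteins (snoRNPs) modify it, a large complex called the small subunit processome cleaves and folds the part for the small subunit, and other factors assemble the large subunit. Dividing and growing cells, such as those of leaf primordia, make many ribosomes. Most of these factors were first described in budding yeast, and the Arabidopsis genes below are named by their yeast counterparts. The roles were assigned after the values had been seen.

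The member signals in wild type ran from 33.6 to 5433.8 with a median of 125.8. Their medians on the as1-1, as2-1 and AS2 overexpressing arrays were 268.9, 251.7 and 245.4. The median fold over wild type was 1.88 on both mutant arrays and 1.76 with AS2 overexpressed. The median log2 differences of the members were 0.909, 0.908 and 0.814, beside 0.015, -0.001 and -0.018 over all probe sets above the floor on all 4 arrays. By the rule all 171 members were at least 1.5-fold higher on each array, where 8.28% of all probe sets above the floor on either array were in as1-1, 8.44% in as2-1 and 4.89% with AS2 overexpressed, and 1.4% were on all 3 arrays. At least 2-fold higher than wild type were 72 of 171 members in as1-1, where 1.8% of all probe sets above the floor on either array were, 72 in as2-1 (1.83% of all) and 47 with AS2 overexpressed (0.744% of all). These shares of members follow from the rule and support nothing. In all 3 comparisons together, 29 members were at least 2-fold higher (0.226% of all probe sets above the floor on any array were), 6 at least 2.5-fold and 3 at least 3-fold, with wild type signals under the floor raised to it.

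**Figure D1:**
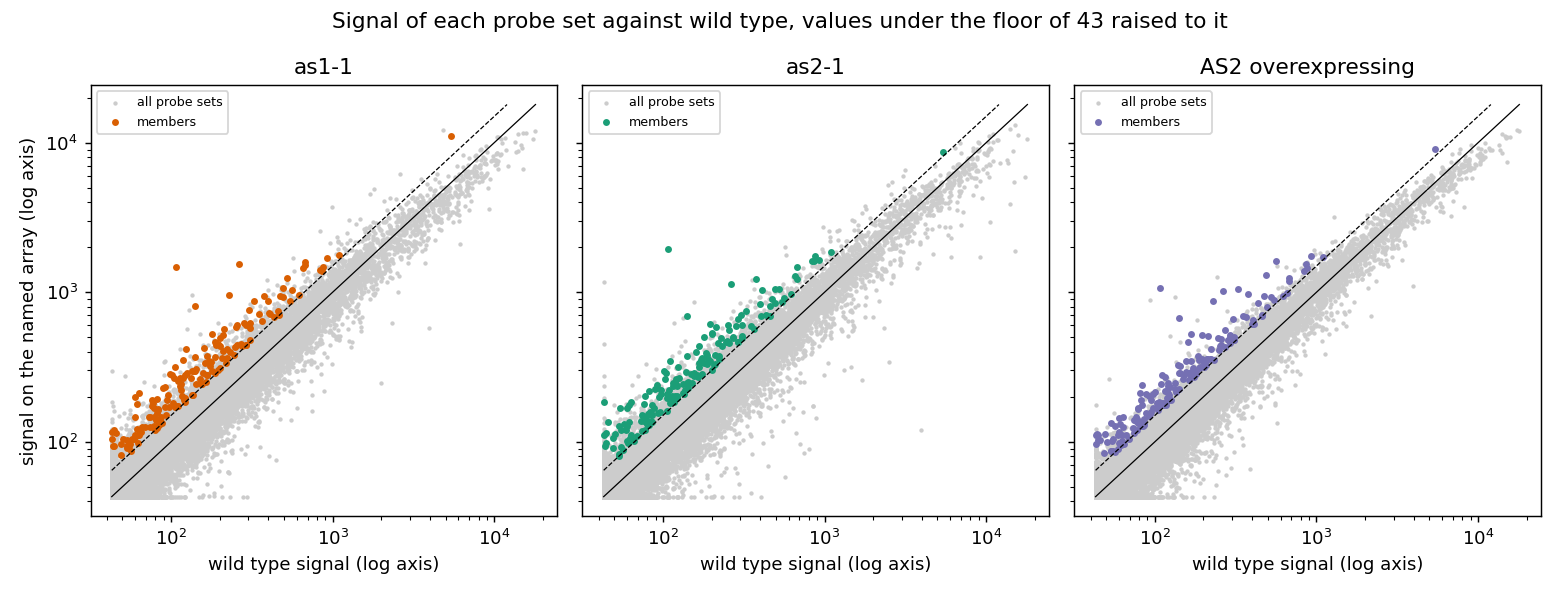
Each panel plots the signal of every probe set in wild type (horizontal, log axis) against as1-1, as2-1 or the AS2 overexpressing line (vertical, log axis), with the 171 members in colour, the solid line at equal signal and the dashed line at 1.5-fold. The members lie above the dashed line in all panels because the rule chose them so, and most lie close to it.

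Setting the same kind of rule the other way gave 209 probe sets highest in wild type and similar on the 3 other arrays. Turned to the AS2 overexpressing array, the rule found 221 probe sets lowest there and similar on the 3 others. As shares of the probe sets at or above 80 on the arrays that the rule needed high, these were 1.66% for the pattern lowest in wild type before names were left out, 1.82% for highest in wild type and 2.07% for lowest in the AS2 overexpressing line. These shares hold for the signals as deposited, and the other patterns were not counted under another scaling.

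The 2 members farthest from wild type have no gene in the naming table. The first of them had a signal of 108.1 in wild type, 1474 in as1-1, 1937.3 in as2-1 and 1068.3 with AS2 overexpressed, and the next had 141.3, 814.9, 696.6 and 667.9. With signals under the floor raised to it, the 3 members at least 3-fold higher on every other array have no gene in the table, and neither have 16 of the 29 that were at least 2-fold higher. Without the floor, the named member AT2G23910 was past 3-fold as well, with a lowest log2 difference of 1.73. Among named members above the floor in wild type, the lowest of the 3 other signals was at most 2.51 times wild type, in AT2G33170.

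Turning to the named members, 13 were at least 2-fold higher on all 3 arrays. AT2G23910, of a family of NAD(P)-binding proteins, had 33.6 in wild type, below the floor, and 117, 186 and 111.3 in as1-1, as2-1 and the AS2 overexpressing line. It was at least 2.72-fold, at least 4.33-fold and at least 2.59-fold higher. AT5G17760, of the AAA ATPase family, was the other member below the floor in wild type, at 41, and had 105.1, 110.7 and 96.3 on the other arrays. AT2G33170, a leucine-rich repeat receptor kinase gene, went from 44.4, just above the floor, to 119.6, 113.9 and 111.3. These 3 genes were dim in wild type, so their folds rest on signals near the floor.

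Other genes of this group had wild type signals well above the floor. AT4G30800 encodes protein S11 of the cytosolic small ribosomal subunit, and its signal was 213.9 in wild type, 567.9 in as1-1, 587.3 in as2-1 and 513.3 with AS2 overexpressed. AT4G32340, of the tetratricopeptide repeat family, had 490.5 in wild type and 1076.3, 1045.9 and 1299.8 on the others. AT4G16146, related to cAMP-regulated phosphoproteins, had 305.1 against 759.5, 704.9 and 660.3. In each of these the 3 other arrays stood together, within 1.24 times of each other, and above wild type.

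The remaining named members at 2-fold or more on every array were AT2G32220, AT2G19310, AT3G10530, AT2G18900, AT1G61170, AT4G32605 and AT3G09720. AT2G19310, a small heat shock protein family gene, had 45.8 in wild type and 115, 135.6 and 102.7 on the as1-1, as2-1 and AS2 overexpressing arrays. AT2G18900, a WD40 repeat gene, had 98 in wild type and 285.5, 220.5 and 209.4. AT4G32605 had 115.6 and then 243.3, 247.2 and 273.1, and AT1G61170 had 43.8 and then 93.2, 93.1 and 113. All were lowest in wild type by the rule, and they differed in which of the other arrays was highest. In wild type AT1G61170, AT2G19310 and AT3G09720 (at 44.6) lay just above the floor, so their folds too rest on signals near it.

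**Figure D2:**
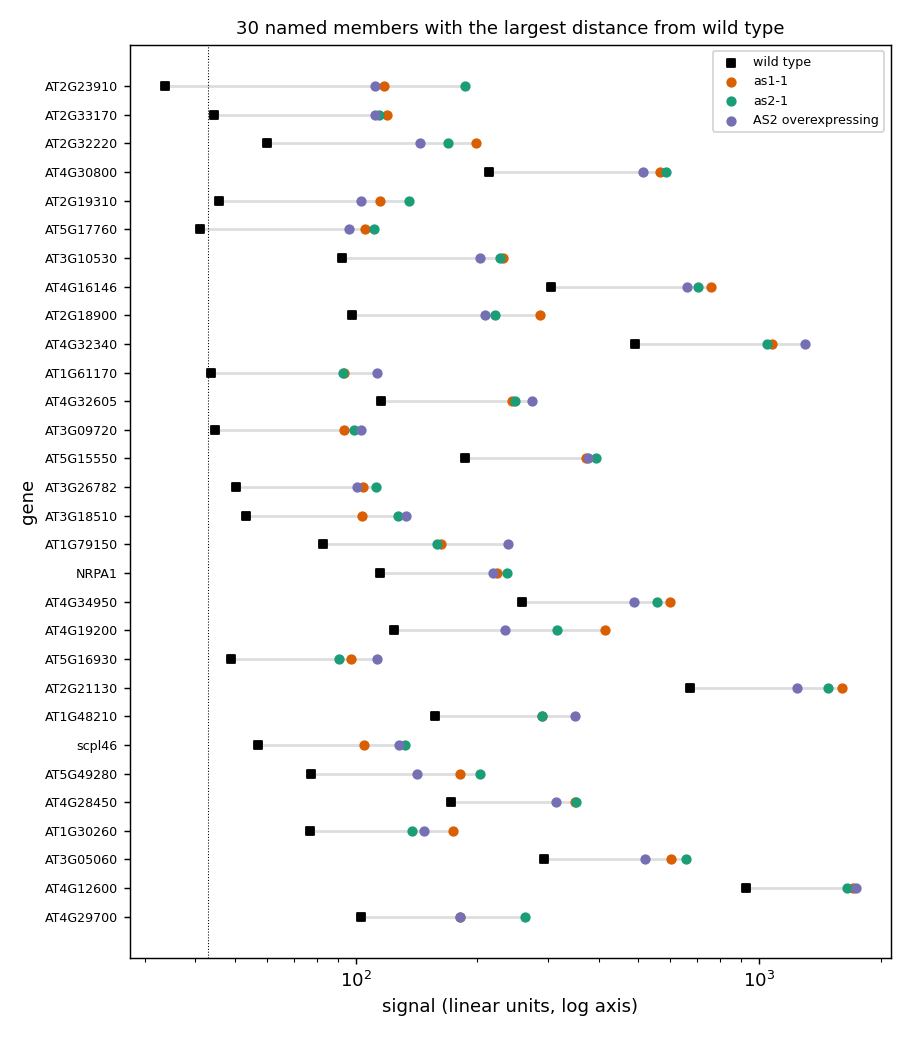
Signals of the 30 named members with the largest distance between wild type and the lowest of the other arrays, one row per gene, on a log axis, with a square for wild type, circles for the other genotypes and a dotted line at the floor of 43. Wild type is the lowest point in every row, as the rule requires, and lies below the floor for AT2G23910 (33.6) and AT5G17760 (41).

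Genes of ribosome making made up 16 of the 98 named members, a grouping drawn up after the members' values were seen and not tested. Of the 7872 named genes above the floor on any array, 57 are on the list of ribosome making described below. That list was written after the members were known and may lack genes of the pathway, so these counts are not a like comparison. NRPA1, the largest subunit of RNA polymerase I, had a signal of 114.8 in wild type, 223.6 in as1-1, 236.7 in as2-1 and 218.6 with AS2 overexpressed, 1.95-fold, 2.06-fold and 1.90-fold higher. Of the snoRNP proteins, AT3G05060, the counterpart of yeast NOP58, had 291.6 in wild type and 605.1, 658.2 and 521.8 on the other arrays, and AT4G12600, of the SNU13 family that binds the same particles, had 923.8 and 1706.9, 1647 and 1734.8. The 1 member that the table links to several genes, AT5G27140 and AT5G27120, measures further NOP56 and NOP58 relatives together, and its signals were 133.6 in wild type and 266.1, 243.4 and 248.6. For all of these the 3 other genotypes lay between 1.78 and 2.26 times wild type.

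Components of the small subunit processome included AT3G10530 (UTP7 in yeast), the named member of this role farthest from wild type. Its signal was 92.1 in wild type, 231.5 in as1-1, 227.6 in as2-1 and 202.9 with AS2 overexpressed, which is 2.51-fold, 2.47-fold and 2.20-fold higher. AT4G28450 (SOF1) had 172.4 against 349.6, 351.1 and 313.4, a near-equal signal in both mutants. AT4G04940 (UTP21) had 111 against 173, 182 and 182.1, and AT3G06530 (UTP10) had 195.2 against 300.1, 345.7 and 356.7. AT3G09720 (RH57, a DEAD-box RNA helicase whose yeast counterpart is ROK1) was dim in wild type, at 44.6, and stood at 93.3, 98.9 and 102.8 on the others. UTP21 and UTP10 lay nearer to the 1.5-fold limit, at 1.56-fold and 1.54-fold for the lowest of the 3 arrays.

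Large subunit factors formed the largest group. AT5G15550, the counterpart of mammalian WDR12, which works with Pescadillo in processing the large subunit RNA, had 186 in wild type, 371 in as1-1, 393.1 in as2-1 and 375.5 with AS2 overexpressed. AT3G23620 (RPF2) had 405.1 against 721.4, 696.4 and 647.7, and AT3G22660 (EBP2) had 140.9 against 298.8, 246.2 and 223.9. These both had their highest signal in as1-1. AT1G23280 (MAK16) had 82.2 against 156, 129.6 and 191.5, highest in the AS2 overexpressing line, as did the RNA helicase gene AT3G18600 (HAS1), with 366.9 against 642.5, 568.7 and 680.2. AT1G30240 (RIX1) had 74.3 against 146.4, 118.5 and 115. AT3G07750 encodes RRP42, a subunit of the exosome that trims RNA from its 3′ end, and had 117.2 against 203, 184.1 and 177.5.

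AT1G79150, the counterpart of NOC3, is measured by 2 probe sets. The member had 82.9 in wild type and 162.4, 158.5 and 238.3 on the as1-1, as2-1 and AS2 overexpressing arrays. The other probe set had 134.2 and then 194.3, 197 and 191.6, so that its lowest of the 3 was 1.43 times wild type and missed the rule. Both put wild type lowest, and only the member put the AS2 overexpressing line clearly above the mutants. AT4G17140 and AT1G26300 also have other probe sets that missed the rule. Those of AT4G17140 had lowest folds of 1.32 and, for a probe set below the floor on all arrays, 1, and that of AT1G26300 had 1.43.

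To see how other genes of this pathway stood, a list of 92 Arabidopsis genes of ribosome making was written from knowledge of the pathway, after the members were known and without choosing genes by their signals. Of these, 57 are named on the array and lay above the floor on at least 1 array, and 16 of them are the members above. All 3 other genotypes were higher than wild type, by any amount, for 53 of the 57 genes, where this held for 28.4% of the 5503 named genes at or above 80 on those 3 arrays and for 23.9% of the 7872 named genes above the floor on any array. The members had to be on that side. Among the 41 listed genes that are not members it held for 37. With the brightest probe set for each gene, all 3 arrays were at least 1.5-fold higher for 16 of the 57 genes, beside 1.5% of the 7872. The 16 genes were 15 members and AT1G77030 (DBP10), which missed membership because its signal in as1-1, 74.7, lay under 80. Raising the floor to the 60th percentile of signals gave a count of 10 in place of 16. There were 20 with each array centred on its median over all probe sets.

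The median log2 differences of the 57 genes from wild type were 0.598 for as1-1, 0.63 for as2-1 and 0.469 with AS2 overexpressed. Without the members they were 0.457, 0.498 and 0.418, and over all 7872 named genes they were 0, -0.006 and -0.019. Small subunit processome genes outside the members had medians of 0.362, 0.321 and 0.406 over 15 genes, and large subunit genes 0.53, 0.504 and 0.4 over 17. Most listed genes missed the 1.5-fold limit while lying on the same side. The 3 medians come from a list chosen with these data known and share the wild type array, so they are no independent evidence.

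Several listed genes that are not members show this. Pescadillo (PES, AT5G14520), which acts with WDR12, had 945.1 in wild type, 1308 in as1-1, 1206.1 in as2-1 and 1443.8 with AS2 overexpressed. AT2G40360, the counterpart of mammalian BOP1, the third protein of that complex, had 677.8 against 1183.2, 961.1 and 982.2. NRPA2, the second largest subunit of RNA polymerase I, had 336.1 against 549.5, 474.6 and 465.1. AT1G06720 (BMS1), a GTPase of the small subunit processome, had 116.3 against 234.1, 214.7 and 160.2, higher in the mutants than in the AS2 overexpressing line. AT5G41190 (NOB1), the nuclease that makes the final cut of the small subunit RNA, differed in pattern, with 325.5 in wild type, 354.7 in as1-1, 666 in as2-1 and 577.9 with AS2 overexpressed. The 4 exceptions to the common side were AT5G65900, AT5G08420, AT5G40530 and AT2G40700, each with at least 1 array below wild type. AT5G08420 (KRR1) was nearly level on all arrays, at 396.4, 376.1, 402.9 and 412.6.

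**Figure D3:**
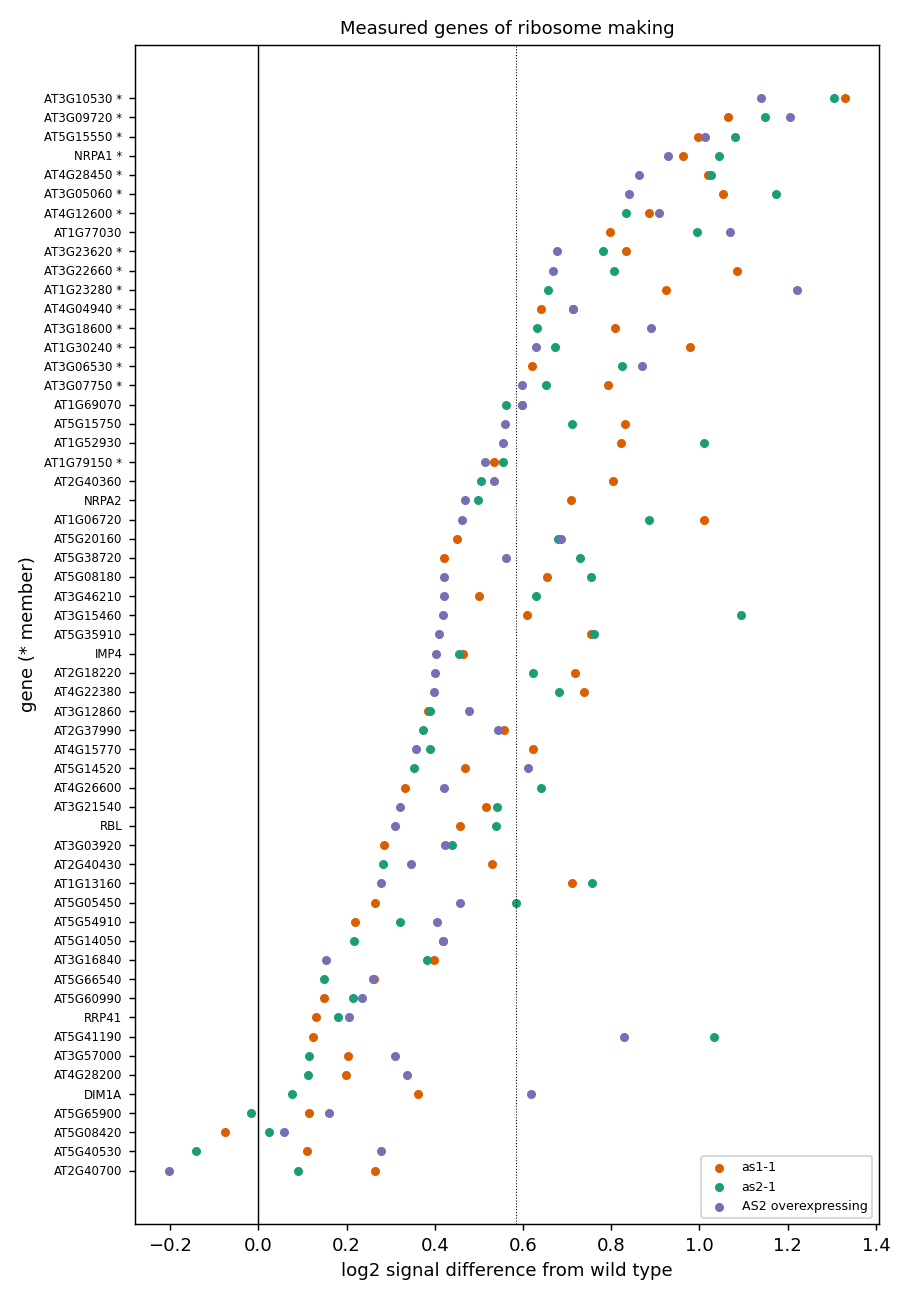
Log2 signal difference from wild type (horizontal axis) for each of the 57 measured genes of ribosome making, one row per gene and one point for each other genotype, with a solid line at 0, a dotted line at 1.5-fold and an asterisk at the 16 members. AT1G79150 is drawn by its brighter probe set, which is not the member. For 53 genes all 3 points lie to the right of 0, and the 4 rows at the bottom are the exceptions.

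Beside this, leaf genes of photosynthesis were on the other side. RCA, which encodes Rubisco activase, had 9159.9 in wild type, 4971.3 in as1-1, 5583.6 in as2-1 and 6761.6 with AS2 overexpressed, and LHCB4.1, an antenna protein gene of photosystem II, had 9942.2, 7718.7, 6937.2 and 9200.6. Both measured mesophyll markers were thus highest in wild type. Of the 4 measured photosynthesis genes, all were lower than wild type in both mutants, and PRK stood at 3711.1 in the AS2 overexpressing line against 3682 in wild type. The share of all named genes lower in both mutants was not counted, so nothing is drawn from these 4. They were not compared under another scaling. The highest signal on each array was 17878.2 in wild type, 12209.7 in as1-1, 13168.8 in as2-1 and 12194.6 with AS2 overexpressed. The photosynthesis list medians were -0.734, -0.617 and -0.275 on the log2 scale. The part that the make-up of the tissue has in the members' signals was not tested. The 5 measured reference genes, with steady levels across many plant tissues, had medians of 0.065, 0.105 and -0.018. Singly they ranged from -0.21 to 0.69 in as1-1, -0.041 to 0.374 in as2-1 and -0.222 to 0.272 with AS2 overexpressed. The largest difference was that of AT5G15710, at 79.6 in wild type and 128.4 in as1-1.

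Ribosomal proteins themselves gave 4 named members of the cytosolic ribosome, each from a family of several genes, whose sequences were not compared here. AT2G32220, a gene for protein L27, had 60 in wild type, 198.6 in as1-1, 169 in as2-1 and 144 with AS2 overexpressed. AT1G15250, for protein L37, had 222.5 against 417.7, 357 and 357.8, and AT4G10450, for protein L9, had 868.8 against 1477.4, 1751 and 1455.6. The fourth was AT4G30800, for S11. The other measured genes for L27 and L37 stood closer to wild type. For S11 and L9 the other genes looked up were not named on the array, so they have no values here. For L27, AT3G22230 was 1.44-fold, 1.26-fold and 1.202-fold wild type and AT4G15000 was 1.03-fold, 1.18-fold and 1.17-fold. For L37, AT1G52300 was lower than wild type, at 0.758, 0.826 and 0.802 times, and AT3G16080 was at 1.02, 1.18 and 1.15 times. Cross-hybridization between such copies was not tested, so the difference between copies is uncertain.

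Nucleotide synthesis was represented by 3 members. AT1G30820 encodes CTP synthase, which makes the nucleotide CTP from UTP, and had 560.7 in wild type, 1035.1 in as1-1, 912.2 in as2-1 and 1625.8 with AS2 overexpressed. AT4G20320, another CTP synthase gene, had 246.1 against 381.6, 466.5 and 492.1. Both were highest with AS2 overexpressed. A further CTP synthase gene, AT4G02120, did not share the pattern, at 0.817, 1.08 and 0.84 times wild type, and AT2G34890 lay below the floor on all arrays. AT1G79470, for IMP dehydrogenase of guanine nucleotide synthesis, had 84 against 132.9, 156.2 and 136.3, while the other gene for this enzyme, AT1G16350, stood at 1.06, 0.985 and 1.16 times wild type.

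A mitochondrial role was given here to 7 members, and members placed in no role group may encode further mitochondrial proteins. AT1G07830, of the ribosomal protein L29 family, had 307.5 in wild type and 627.6, 608.2 and 501.1 on the as1-1, as2-1 and AS2 overexpressing arrays. AT5G02050, of the mitochondrial glycoprotein family, had 174.7 against 319.9, 365.9 and 269.6. AT1G53030, a copper chaperone gene related to COX17 of cytochrome oxidase assembly, had 78 against 123.1, 119.8 and 119.5. The others were the ATPase gene AT5G16930, AT1G08220 of ATP synthase assembly, AT5G14580 for polynucleotide phosphorylase and AT1G53530 of the inner membrane peptidase family. Over the 7, the lowest of the 3 arrays was 1.51 to 1.85 times wild type. Enzymes that modify RNA or translation factors were AT1G76120 and AT3G19440, of the pseudouridine synthase family, and AT4G31790, for diphthine synthase, which modifies elongation factor 2, at 150.3 in wild type and 262.3, 282.8 and 261.5.

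**Figure D4:**
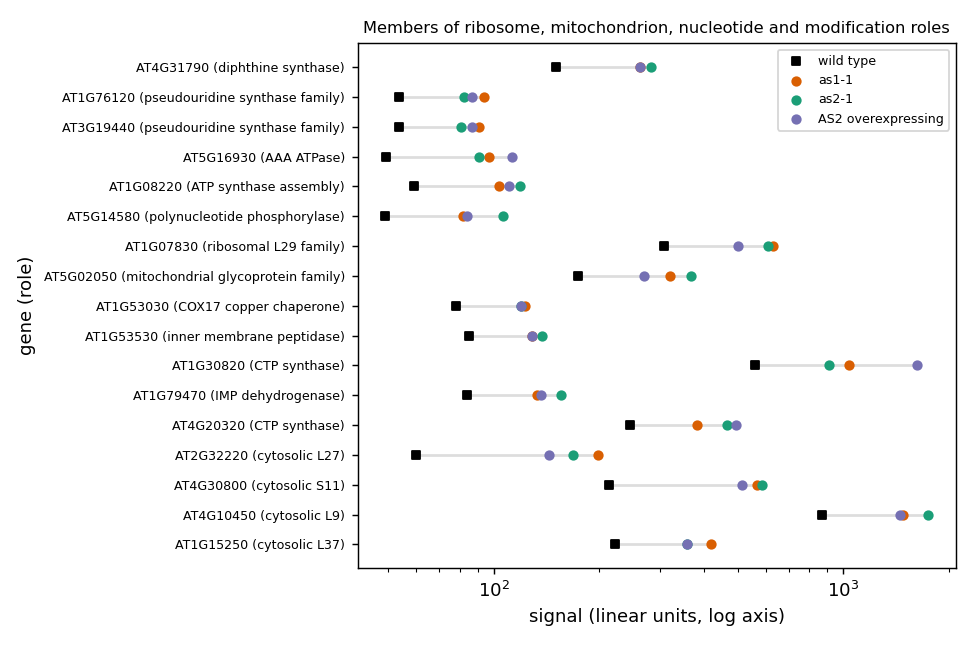
Signals (log axis) of the members with roles in cytosolic ribosomal proteins, mitochondria, nucleotide synthesis and modification of RNA or translation factors, one row per gene, with a square for wild type and circles for the other genotypes. AT1G30820 is the row in which the AS2 overexpressing line stands farthest above the mutants, at 1625.8 against 1035.1 and 912.2.

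Other named members have roles outside protein synthesis. THIC, an enzyme gene of thiamine synthesis in the chloroplast, had 862.7 in wild type, 1383.9 in as1-1, 1607.6 in as2-1 and 1543.7 with AS2 overexpressed. The transcription factor gene bZIP44 had 63 against 110.6, 101.8 and 111.1, and scpl46, a serine carboxypeptidase-like gene, had 57.1 against 104.5, 132.1 and 127.7. TUB9, a beta-tubulin gene, lay close to the limit, with 654.6 against 1442.7, 1291.5 and 984.3. In TUB9 the mutants stood above the AS2 overexpressing line, which itself was 1.504 times wild type. AT2G21130, a cyclophilin gene, had 673.8 against 1604.3, 1475.5 and 1241.2, and AT4G34950, of the major facilitator family of transporters, had 257.9 against 600, 558.9 and 487.8.

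Kinase genes were AT2G33170, AT1G48210 and AT2G01210. AT1G48210 had 156.7 in wild type and 289.6, 288.3 and 349.7 on the other arrays, whereas AT2G01210, a receptor kinase gene, had 59.6 and then 146.5, 128.1 and 89.7. The proline-rich protein gene AT4G19200 had 124.3 against 414.8, 315.6 and 233.8, and was one of the members whose 3 other arrays differed most. Further members among the 30 named genes farthest from wild type were AT3G26782, AT3G18510, AT5G49280, AT1G30260 and AT4G29700, whose lowest of the 3 arrays was 1.76 to 1.99 times wild type. Of the 98 named members, 55 were placed in no role group here.

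A single member belongs to the plastid genome. This is ndhF, a subunit gene of the chloroplast NDH complex, with 106.3 in wild type, 315.9 in as1-1, 197.5 in as2-1 and 177.4 with AS2 overexpressed. It was the 1 plastid probe set of 66 at or above 80 on the 3 arrays that was at least 1.5-fold higher on all 3, and 7 of the 66 were higher there by any amount. The medians of the 66 were -0.209, -0.086 and -0.27 on the log2 scale.

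The rule limited how far the 3 other arrays could differ but did not fix their order. The highest of the 3 was as1-1 for 61 members (35.7%, beside 33.1% of the 10562 probe sets at or above 80 on those arrays), as2-1 for 65 (38.0% beside 29.8%) and the AS2 overexpressing line for 45 (26.3% beside 37.1%). The AS2 overexpressing line was the lowest of the 3 for 84 members (49.1%), beside 39.8% of the same probe sets. For as1-1 this was 27.5% beside 30.6%, and for as2-1 23.4% beside 29.6%. These orders hold for the signals as deposited and were not counted under another scaling. With each array centred on its median over all probe sets, the order of the members' medians changed. The median log2 differences were then 0.914 in as1-1, 0.94 in as2-1 and 0.938 with AS2 overexpressed. Under the other scalings the AS2 overexpressing line kept the lowest of the 3 medians. The median ratio of the highest to the lowest of the 3 was 1.23 for the members and 1.28 for all 10562 probe sets, and 76 members had a ratio under 1.2. The rule held the members' ratio under 2 but not that of the 10562 probe sets, so the lower median may come in part from the rule.

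Neighbouring genes were looked for along the chromosomes of the TAIR10.1 assembly. AT1G53030 and AT1G53035 are next to each other with no protein-coding gene between them and do not overlap. AT1G53035 had 134.6 in wild type, 297.8 in as1-1, 207.6 in as2-1 and 214.1 with AS2 overexpressed, while AT1G53030 was nearly equal on those 3 arrays. The pairs AT1G30240 with AT1G30260 and AT2G23910 with AT2G23940 each have 1 gene between them, and AT3G26760 with AT3G26782 has 2. Pairs were sought with up to 10 protein-coding genes between them. The remaining pairs were AT5G03905 with AT5G03970, with 6, and AT3G18510 with AT3G18600, with 10. Such pairs were not counted among all measured genes, so nothing is drawn from them. Named members lay on chromosomes 1 to 5 in numbers of 33, 15, 17, 17 and 15. Chromosome 1 thus held 33.7% of them, beside 25.6% of the named genes at or above 80 on the 3 arrays, and chromosome 5 held 15.3% beside 24%.

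Near the limits of 1.5-fold and 80, the values of genes inside and outside were much alike. Just inside 1.5-fold were AT1G26300, AT5G63180, TUB9, AT2G01210 and AT1G28190, at 1.5008 to 1.5062, and just outside were AT5G49560, AT1G26665, AT4G10320, AT3G01660 and AT1G31310, at 1.4938 to 1.4982. At the limit of 80, AT3G19440 had a lowest signal of 80.6 and AT5G65205 one of 78.7. At the limit of 2 for the spread of the 3 arrays the nearest named genes were farther apart. AT1G30820 was inside at 1.78 and AT1G62480 outside at 2.08.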

How the data were processed

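Transcripts of 4 shoot apex samples were measured on 1 Affymetrix array each. The authors deposited signal intensity values on a linear scale, one per probe set. Biotinylated cRNA was made by the maker's protocol, per the labels' protocols, and no software for the signals is named in the labels (not given in the sources used here). These intensities were used as deposited and only raised to the floor of 43. With 1 array per genotype the number of arrays limits all precision.

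Of 22746 probe sets, 13513 had 1 gene in the platform's naming table, 503 several and 8730 none, and 13436 matched a locus of the RefSeq table of TAIR10.1. That table served for names, gene order and genome, and no coordinates are printed since the array's build is not stated. Each gene was represented by the probe set with the highest mean signal, except that members are given by their own probe set. Named were the 30 members with 1 gene farthest from wild type, members with a symbol, members of a role group of 3 or more, genes at the limits of the rule and list genes beside a member. Neighbouring members, listed non-members of ribosome making and members with several probe sets were chosen after their values were seen. The members, lists and roles were chosen with earlier results of these data known. The ribosome list and the role groups were written after the members' values were seen. Of 161 genes in 24 other lists, 36 were named on the array and none was a member, where 98 of 7872 named genes above the floor were, so that this count says nothing of the lists. A planned search of promoters for motifs was not run because no sequences were at hand here.

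Python 3.11.15 with pandas 2.3.3, and limma 3.58.1 in R 4.3.3 for cyclic loess, were used. Alternatives changed the scaling (array medians, quantile normalization, cyclic loess), the floor and each limit of the rule.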

Additional observations from a re-analysis of the deposited data

How the results depend on the processing

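The number of probe sets lowest in wild type was 171 and ranged from 158 to 241 over 4 other scalings. It was 158 with centring on the median of the brighter probe sets, 241 with centring on the median of all, 177 with quantile normalization and 161 with cyclic loess, with 153, 170, 154 and 148 of the 171 kept. It was 171 with no floor, 141 with a minimum signal of 120 and 150 with a spread under 1.5. With the floor raised to the 60th percentile of signals (128.6) it fell to 98, since this floor by construction hides members that are dim in wild type. It was 29 with the limit at 2 times wild type. Centring on all probe sets moved the median log2 difference of the AS2 overexpressing array over probe sets above the floor by 0.124, from -0.018 to 0.106. The median log2 differences of the members stayed between 0.688 and 0.914 in as1-1, 0.702 and 0.94 in as2-1, and 0.658 and 0.938 in the AS2 overexpressing line over these scalings and floors. All 171 members stayed higher than wild type on the 3 arrays under the 4 scalings and with no floor, and 135 did with the higher floor. Of the 57 listed genes of ribosome making, 53 or 54 had wild type lowest under the 4 scalings and with no floor, and 43 with the higher floor. All 3 arrays were at least 1.5-fold higher for 15 to 20 of them under the scalings and for 10 with the higher floor. No paired analysis was possible because each genotype has 1 array.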
